A study of Mus musculus with 16 samples.

Results

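Carboxylesterases are serine hydrolases of the endoplasmic reticulum that split ester bonds in triglycerides, diglycerides and cholesteryl esters and in many drugs. In the small intestine, enterocytes use them on absorbed lipid and on ester prodrugs. The mouse genes of the Ces1 and Ces2 groups arose by duplication and lie in rows on chromosome 8. Described here are 10 of these genes in the ileum: Ces1b, Ces1c, Ces1d, Ces1e, Ces1f and Ces1g, and Ces2a, Ces2b, Ces2c and Ces2e. They were selected by gene name from the 41740 names in the count tables, with earlier results of these data known. Their levels and the differences between groups are therefore given as a description. All 10 passed the filter on low counts, as did 15267 genes in all, and 9 of the 10 had a median of at least 10 counts per library.

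The study asked what insulin action on the gut does in diabetic mice with steatohepatitis. Total RNA of the whole ileal wall was sequenced in 16 male STAM mice of a C57BL/6J background at 20 weeks of age. STAM mice are made diabetic with neonatal streptozotocin and are fed a high-fat diet from week 4. Every mouse of all 3 groups also carried the floxed insulin receptor gene (InsR-flox). Control-STAM-nonINS (n = 4) had no Villin-Cre (spelled Vilin-Cre(-) in the labels) and received saline, and Control-STAM-INS (n = 6) had no Villin-Cre and received insulin degludec from 6 weeks of age at up to 12 U/kg. ieIRKO-STAM-INS (n = 6) carried Villin-Cre and received the same insulin. They are called the untreated controls, the insulin-treated controls and the ieIRKO group or libraries below. Villin-Cre acts in the intestinal epithelium, so the muscle, immune, vascular and fat cells of the wall keep the receptor. No ieIRKO mice without insulin are among the groups analysed here. A lower level in such tissue can mean fewer cells of a type or less RNA per cell, and these cannot be told apart.

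The 6 Ces1 genes lie on the minus strand of chromosome 8 (GRCm38), from 93056728, where Ces1b ends, to 93337308, where Ces1g begins. The 4 Ces2 genes lie on the plus strand from 104734003, at the start of Ces2a, to 104934672, at the end of Ces2e. The coding sequences of the Ces1 genes shared 72.1% to 90.9% of their bases with one another (15 pairs), and those of the Ces2 genes 82.6% to 92.1% (6 pairs). Between the groups the identity was 57.6% to 60.8% (24 pairs). The closest pairs were Ces2b with Ces2c at 92.1% and Ces1b with Ces1c at 90.9%. Carboxylesterases that stay in the endoplasmic reticulum end in a retrieval signal of histidine, any residue, glutamate and leucine. The last 30 coding bases before the stop codon are shown because they separate the members that carry this signal from those that do not, with the last 4 codons in capitals (GENCODE transcripts, GRCm38).
Ces1b: acagaccctactgagcacAGAGAACACAAA
Ces1c: acagaccctactgaacacACAGAACACAAA
Ces1d: aggccatcccacagggaaCATGTTGAGCTC
Ces1e: aagcaactgccgacagaaCACACTGAGCTG
Ces1f: aaacaaccccagccatacCACAATGAGCTG
Ces1g: aggtcatcccatagggaaCATGTTGAACTG
Ces2a: aagggttctcaggacaagCATGCAGAGCTG
Ces2b: agggcttctcaggacaagCACACGGAGCTT
Ces2c: aaggcttctcaggacaagCACAGGGAGCTT
Ces2e: aaggggtctcaggagaggCACAAAGAGTTG
The signal was encoded in 8 of the 10 members. Ces1b and Ces1c lacked it, and Ces1c is known as the esterase of mouse plasma.

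Reads of close relatives can be counted on the wrong gene. Of all 100-base windows of each transcript, 10.7% in Ces2a were found again in the pseudogene Gm7208, and 16% in Ces2c in Ces2d-ps, Gm6831 or Gm8798. These pseudogenes were not analysed here. Ces1b and Ces1c shared 1.29% and 1.39% of their windows with each other and Ces2b shared 0.0907% with Gm6831. Ces1d, Ces1e, Ces1f, Ces1g and Ces2e shared none. Ces1d overlaps Gm45909 on the same strand, which had no counts.

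The libraries held 13288018 to 22215382 counted reads. The receptor gene was examined first. Insr was at 112, 104, 88.3 and 116 CPM, which are counts scaled to a common library size by the TMM method, in the untreated controls. It was at 49.9 to 76.1 CPM (median 63.7) in the insulin-treated controls and at 57.5 to 90.4 CPM (median 60.5) in the libraries labelled ieIRKO. Between these groups Insr was not called (log2 fold change 0.10 ± 0.13, SE, edgeR adjusted p = 0.805), but both were lower than the untreated controls by the same test. The counts are per gene, so a deleted exon could not be examined on its own. Other genes did separate the libraries by label, among them Mt4 and Gm45774. Mt4 had 92 to 448 counts in the 6 libraries labelled ieIRKO and 0 to 4 in the 10 controls. These genes are named because they were called between the same labels, so they check neither the labels nor the knockout. Directions are given for the libraries as labelled. The tissue showed the enterocyte markers of an ileum, with all 10 of the list passing the filter. The summed level of the 10 markers was 22003 to 38195 CPM in the untreated controls, 28540 to 35472 CPM in the insulin-treated controls and 15042 to 37043 CPM in the ieIRKO group. The lowest library of the first group, replicate 4, and the lowest of the last, replicate 5, stood below all others. They are given separately where a result rests on them.

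The Ces2 genes carried most of the family's reads in this tissue. Per length of exon, Ces2e was the highest member in all 16 libraries, at 357 ± 70.1 CPM per kb (SD, n = 4) in the untreated controls, 354 ± 28.4 (SD, n = 6) in the insulin-treated controls and 302 ± 54.4 (SD, n = 6) in the ieIRKO group. Ces2c followed with a mean of 172 CPM per kb over all libraries and Ces2a with 134. Ces2c was above Ces2a in 15 of 16 libraries. Then came the highest Ces1 member, Ces1f, at 20.7 CPM per kb, which lay below Ces2a in all 16 libraries. Ces1d was at 8.55 CPM per kb, below Ces1f in 15 of 16. Ces2b, Ces1e and Ces1g stood at 3.32, 2.19 and 1.81 CPM per kb. These neighbours were not clearly ordered, since Ces2b was above Ces1e in 12 of 16 libraries, and Ces1e was above Ces1g in 11 of 16. In the untreated controls alone the order turned, with Ces1g at 2.87, Ces2b at 2.55 and Ces1e at 2.48 CPM per kb. Ces1g was above Ces1c in 11 of 16 libraries, and Ces1c was at 1.13 CPM per kb. Ces1b had only 2 to 20 counts per library, with a median of 6.5, and is treated as too low to measure.

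**Figure D1:**
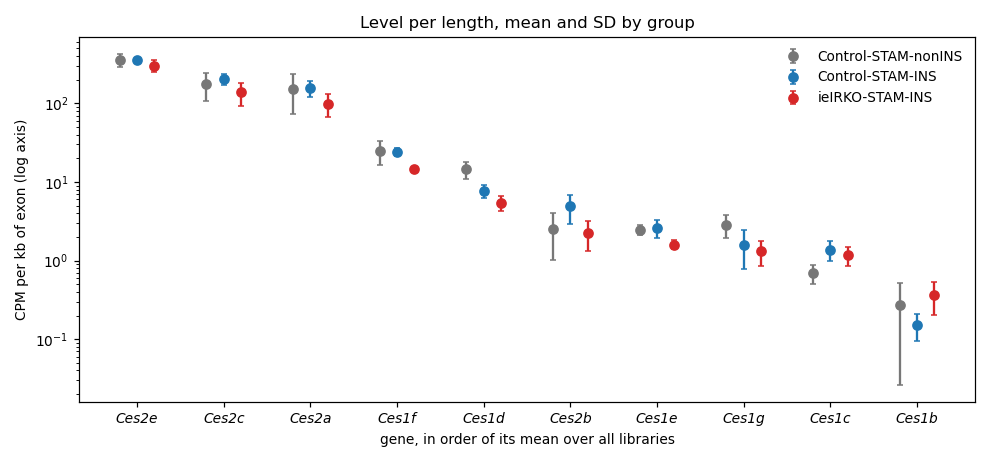
Mean level per length of each gene in the 3 groups, in CPM per kb of merged exon on a log axis, with bars of 1 SD (n = 4, 6 and 6 libraries). Genes are in order of their mean over 16 libraries, from Ces2e at 335 to Ces1b at 0.262 CPM per kb.

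As a share of the reads counted on the 10 members, the Ces2 genes held 91.4% to 96% in every library. Ces2e alone held 47% to 62.3% in the untreated controls, 46.2% to 52.3% in the insulin-treated controls and 53.3% to 63.5% in the ieIRKO group. All 6 libraries labelled ieIRKO were above all 6 of the insulin-treated controls in this share.

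The members that differed between the insulin-treated controls and the untreated controls were Ces1c, which was higher, and Ces1d, which was lower. Of the 10 members, 2 had an edgeR adjusted p under 0.05, 1 higher and 1 lower with insulin. Over all tested genes 10.5% did, and since the same values were known when the members were chosen, nothing is read from the members' count. The same 2 members, Ces1c and Ces1d, had groups that did not overlap, against 10.6% of all tested genes. The median log2 fold change of the members was -0.0011, and that of all tested genes was -0.0041.

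Between the ieIRKO group and the insulin-treated controls, 9 of the 10 members had a negative log2 fold change, with a median of -0.54 against 0.017 over all tested genes, of which 46.2% were negative. Nothing is read from this count, since the members were chosen with these values known and the Ces2 members varied together. With the enterocyte marker level as a covariate, Ces2e, Ces2a and Ces2c were at -0.03, -0.16 and -0.17. As a covariate, here and below, this level was the mean log2 CPM of the 10 markers and not their sum. Of the members 1, Ces1f, passed an edgeR adjusted p under 0.05, against 0.223% of all tested genes. The groups of 2 members, Ces1e and Ces1f, did not overlap, against 0.845% of all tested genes. Between the ieIRKO group and the untreated controls, 4 members passed, all lower (Ces1d, Ces1e, Ces1f and Ces1g), against 13.3% of all tested genes. Ces1d, Ces1e and Ces1g did not overlap there, against 8.56% of all tested genes. The 3 comparisons share their groups in pairs, so their counts are not separate evidence.

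**Figure D2:**
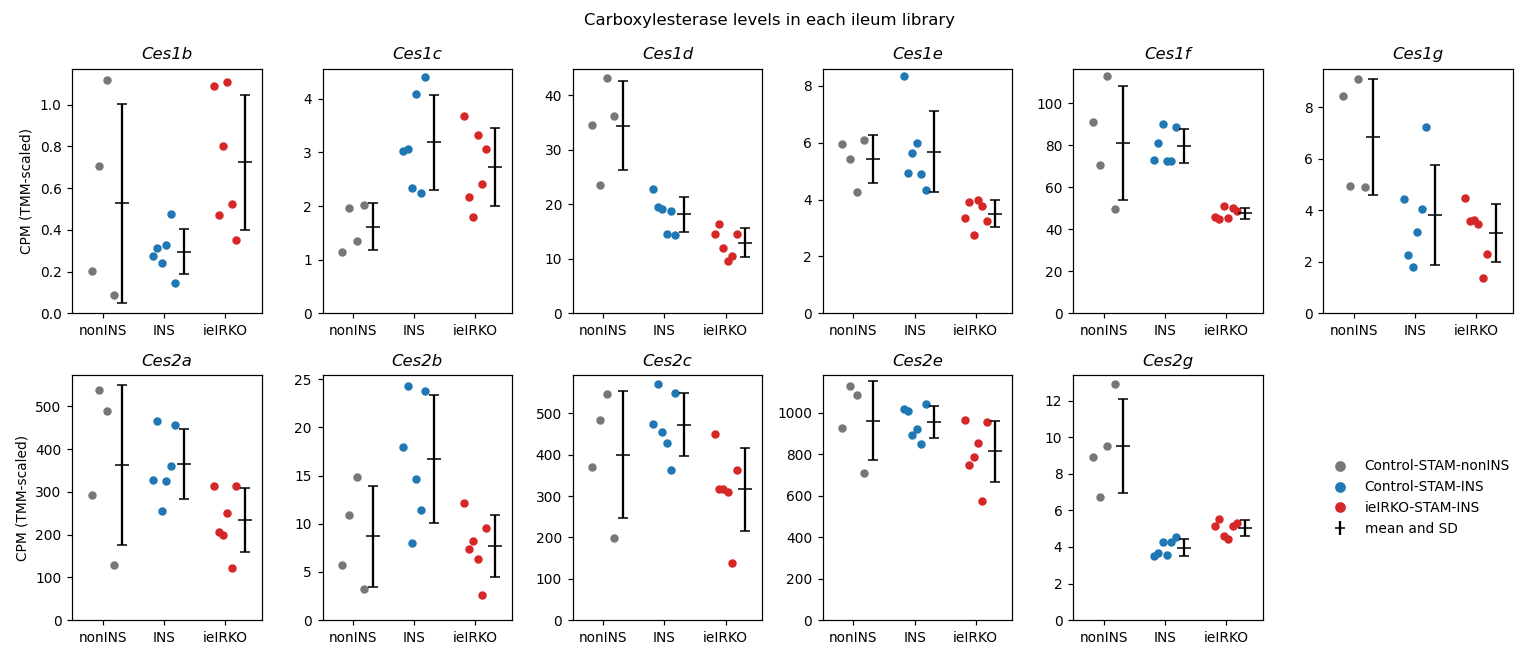
Level of each gene in each library in CPM, 1 point per library, with the mean and 1 SD beside each group (n = 4, 6 and 6). The 6 points of Ces1f in the ieIRKO group lie between 44.9 and 50.8 CPM, below all 6 of the insulin-treated controls, and the Ces2 genes share their lowest libraries.

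Ces1f, an endoplasmic reticulum lipase with triglyceride hydrolase activity, had the tightest values of the family in the libraries labelled ieIRKO. It was at 90.8, 70.5, 113 and 49.5 CPM in the untreated controls. In the insulin-treated controls it was at 72.3 to 90.2 CPM with a median of 76.9, and in the ieIRKO group at 44.9 to 50.8 CPM with a median of 47.2. The knockout-labelled libraries all lay below the insulin-treated controls, and also below all untreated controls except replicate 4, which was at 49.5 CPM. The means were 79.6 ± 8.26 CPM (SD, n = 6) and 47.6 ± 2.53 CPM (SD, n = 6), a log2 fold change of -0.74 ± 0.14 (SE). Against the untreated controls it was -0.77 ± 0.15, and -0.55 ± 0.16 with the call lost without the 5 libraries highest in Adipoq. With and without insulin, the control genotype had the same mean within its spread, at 79.6 and 81 CPM (log2 fold change -0.02 ± 0.15, SE). The call of Ces1f between the insulin-treated groups was lost when any of insulin-treated control replicates 2, 3 and 6 or ieIRKO replicates 2, 4 and 5 was left out. Without each of these it was -0.76 to -0.70 on the log2 scale. With the enterocyte marker level as a covariate, the log2 fold change of Ces1f was -0.63 ± 0.15 (SE) and the call was lost.

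Ces1d, the triglyceride hydrolase that mobilizes stored fat for lipoprotein assembly in liver and is also made by adipocytes, was highest without insulin. It was at 34.6, 23.5, 43.2 and 36.2 CPM in the untreated controls. The level was 14.4 to 22.8 CPM (median 18.9) in the insulin-treated controls and 9.51 to 16.4 CPM (median 13.2) in the ieIRKO group. Every insulin-treated library of either genotype was below every untreated one. The insulin-treated groups overlapped each other, with 3 of the 6 knockout-labelled libraries below all of the insulin-treated controls. The log2 fold change was -0.92 ± 0.17 (SE) with insulin in the control genotype, -0.49 ± 0.16 between the genotypes and -1.41 ± 0.17 between the ieIRKO group and the untreated controls. The calls of Ces1d with insulin and between the ieIRKO group and the untreated controls held when each library was left out in turn. The ratio of Ces1d to Ces1f was lower with insulin as well. In the untreated controls there were 38.1, 33.4, 38.2 and 73.1 CPM of Ces1d per 100 CPM of Ces1f. In the insulin-treated controls there were 16.3 to 31.4, with no overlap, and in the ieIRKO group 20.9 to 36.5.

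Ces1e, known as egasyn for anchoring beta-glucuronidase in the endoplasmic reticulum, had lower values in the libraries labelled ieIRKO than in either control group, but edgeR's quasi-likelihood test called it only against the untreated controls. It was at 5.96, 5.41, 4.25 and 6.08 CPM in the untreated controls, at 4.35 to 8.33 CPM (median 5.29) in the insulin-treated controls and at 2.77 to 3.97 CPM (median 3.56) in the ieIRKO group. The knockout-labelled libraries overlapped neither control group. The log2 fold change was -0.69 ± 0.16 (SE) against the insulin-treated controls, where Ces1e was called only by DESeq2 and the likelihood ratio test among the 13 other fits, and -0.62 ± 0.18 against the untreated controls. These values rest on 45 to 182 counts per library. The call against the untreated controls was lost without untreated control replicate 1, 2 or 4 or ieIRKO replicate 3 or 6, with log2 fold changes of -0.61 to -0.56. It was also lost with total counts in place of TMM (-0.56 ± 0.20), with a replicate block (-0.54 ± 0.18), and without the libraries lowest in enterocyte markers (-0.57 ± 0.21), highest in B cell genes (-0.58 ± 0.20) or highest in Adipoq (-0.73 ± 0.23). Per 1000 CPM of the summed enterocyte markers, Ces1e overlapped between the genotypes, at 0.127 to 0.259 CPM in the insulin-treated controls and 0.0901 to 0.251 CPM in the ieIRKO group.

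Ces1g, which in liver and intestine limits the lipid available for lipoprotein secretion, was highest in the untreated mice, at 8.44, 4.94, 9.12 and 4.9 CPM. It was at 1.8 to 7.23 CPM (median 3.62) in the insulin-treated controls and at 1.36 to 4.49 CPM (median 3.51) in the ieIRKO group. All knockout-labelled libraries were below all untreated ones, and 5 of the 6 insulin-treated controls were as well, the exception being replicate 6. The log2 fold change was -1.11 ± 0.34 (SE) between the ieIRKO group and the untreated controls and -0.81 ± 0.34 with insulin in the control genotype, where Ces1g was not called. With insulin it was -1.08 ± 0.31 and called without insulin-treated control replicate 6, and -0.35 ± 0.36 without the 5 libraries highest in Adipoq. The call of Ces1g between the ieIRKO group and the untreated controls was lost when any of 10 libraries was left out. These were untreated control replicates 1 and 3, insulin-treated control replicates 1, 4 and 5, and ieIRKO replicates 2 to 6, with log2 fold changes of -1.15 to -0.93. It was also lost with no filter (-1.11 ± 0.34), with a replicate block (-1.10 ± 0.36), and without the libraries lowest in enterocyte markers (-1.08 ± 0.34), highest in B cell genes (-1.22 ± 0.41) or highest in Adipoq (-0.90 ± 0.37).

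Ces1c went the other way. It was at 1.14, 1.96, 1.34 and 2.01 CPM in the untreated controls and at 2.24 to 4.4 CPM (median 3.04) in the insulin-treated controls, with no overlap. It was at 1.79 to 3.68 CPM (median 2.73) in the ieIRKO group, where 5 of 6 libraries were above all untreated ones. The log2 fold change was 0.93 ± 0.25 (SE) with insulin in the control genotype and 0.72 ± 0.25 between the ieIRKO group and the untreated controls. Ces1c had 17 to 90 counts per library, and its call with insulin was lost without untreated control replicate 1 or 3 or insulin-treated control replicate 4 or 6, with log2 fold changes of 0.81 to 0.86. Per 1000 CPM of the summed enterocyte markers, the control groups overlapped in Ces1c. It was at 0.0357 to 0.0914 CPM without and 0.076 to 0.128 CPM with insulin. With the enterocyte covariate, the log2 fold change of Ces1c with insulin was 0.90 and still called. Its close relative Ces1b, at 0.0875 to 1.12 CPM, gave no usable comparison.

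Summed over the 6 Ces1 members, the level was 141, 107, 172 and 98.7 CPM in the untreated controls and 101 to 119 CPM (median 111) in the insulin-treated controls. It was 66.8 to 72.9 CPM (median 71.6) in the ieIRKO group. The libraries labelled ieIRKO overlapped neither control group in this sum, of which Ces1f made 50.1% to 75.6% in every library.

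**Figure D3:**
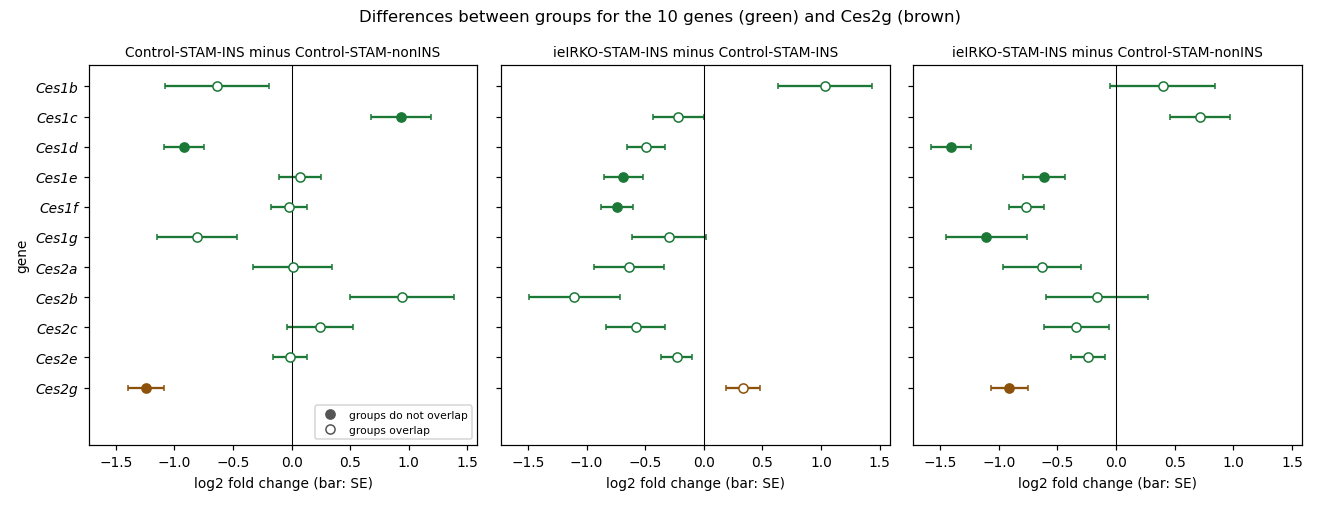
Log2 fold change of each gene in the 3 comparisons, with bars of 1 SE. Filled points mark genes whose groups do not overlap in CPM, which are 2, 2 and 3 of the 10 members (green), and Ces2g (brown) in the first and the last comparison.

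The 4 Ces2 members moved together from library to library. Ces2c, a triglyceride and diglyceride lipase of gut and liver, was at 371, 485, 547 and 198 CPM in the untreated controls. It was at 363 to 570 CPM (median 464) in the insulin-treated controls and at 138 to 449 CPM (median 318) in the ieIRKO group. The lowest values were those of untreated control replicate 4 and ieIRKO replicate 5, the libraries lowest in enterocyte markers. The insulin-treated groups overlapped, with 4 of 6 knockout-labelled libraries below all of the insulin-treated controls. Ces2c had a log2 fold change of -0.58 ± 0.25 (SE) between the genotypes, -0.43 ± 0.13 without these libraries and -0.17 ± 0.08 with the enterocyte marker level as a covariate.

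Ces2a, a diglyceride hydrolase, was at 293, 539, 490 and 130 CPM in the untreated controls. It was at 255 to 467 CPM (median 343) in the insulin-treated controls and at 122 to 315 CPM (median 228) in the ieIRKO group. The lowest libraries were again untreated control replicate 4 and ieIRKO replicate 5. Ces2a had a log2 fold change of -0.64 ± 0.30 (SE) between the genotypes, -0.51 ± 0.19 without these libraries and -0.16 ± 0.15 with the enterocyte covariate. Against the untreated controls, Ces2a was not called over all 16 libraries (-0.63 ± 0.33) and was called without these libraries (-0.77 ± 0.23).

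Ces2b was the lowest of the Ces2 members, at 5.76, 10.9, 14.9 and 3.19 CPM in the untreated controls. It was at 7.97 to 24.3 CPM (median 16.3) in the insulin-treated controls and at 2.62 to 12.2 CPM (median 7.77) in the ieIRKO group. It had the widest spread and the largest fold changes of the Ces2 members, 0.94 ± 0.44 (SE) with insulin in the control genotype and -1.11 ± 0.39 between the genotypes on the log2 scale, but the groups overlapped in both. With the enterocyte covariate these were 0.81 ± 0.21, where Ces2b was called, and -0.51 ± 0.20, where it was not. Relative to its nearest relative in sequence, there were 1.55 to 2.72 CPM of Ces2b per 100 CPM of Ces2c in the untreated controls, 1.75 to 4.34 in the insulin-treated controls and 1.9 to 2.72 in the ieIRKO group.

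Ces2e was the steadiest of the Ces2 members. It was at 925, 1129, 1088 and 712 CPM in the untreated controls, at 852 to 1041 CPM (median 966) in the insulin-treated controls and at 576 to 967 CPM (median 820) in the ieIRKO group. The means of the control groups were 963 ± 189 CPM (SD, n = 4) and 956 ± 76.7 CPM (SD, n = 6), and the log2 fold change with insulin was -0.01 (95% interval -0.32 to 0.29). Between the genotypes it was -0.23 (95% interval -0.50 to 0.04) and with the enterocyte covariate -0.03 ± 0.07 (SE).

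The enterocyte marker level thus moved with the Ces2 levels. Per 1000 CPM of the summed markers, Ces2e was at 28.9 to 32.4 CPM in the untreated controls, 27.6 to 31.7 CPM in the insulin-treated controls and 26.1 to 38.3 CPM in the ieIRKO group. Ces2c was at 12.7 to 16.1 CPM in the insulin-treated controls and at 9.19 to 12.8 CPM in the ieIRKO group on that scale, with 5 of the 6 knockout-labelled libraries below all of the insulin-treated controls. Ces1d, whose control groups did not overlap in CPM, overlapped on that scale, at 0.616 to 1.64 CPM without and 0.421 to 0.71 CPM with insulin, and with the enterocyte covariate its log2 fold change with insulin was -0.94 ± 0.17 (SE) and still called. Ces1f per 1000 CPM of the markers was at 2.17 to 2.93 CPM in the insulin-treated controls. In the ieIRKO group 5 libraries were below that range, and replicate 5 was above it at 3.32 CPM. None of the 10 enterocyte markers passed edgeR's adjusted p under 0.05 with insulin or between the genotypes, where none had an unadjusted p under 0.05 either. Only Fabp6 passed between the ieIRKO group and the untreated controls, where it was lower.

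**Figure D4:**
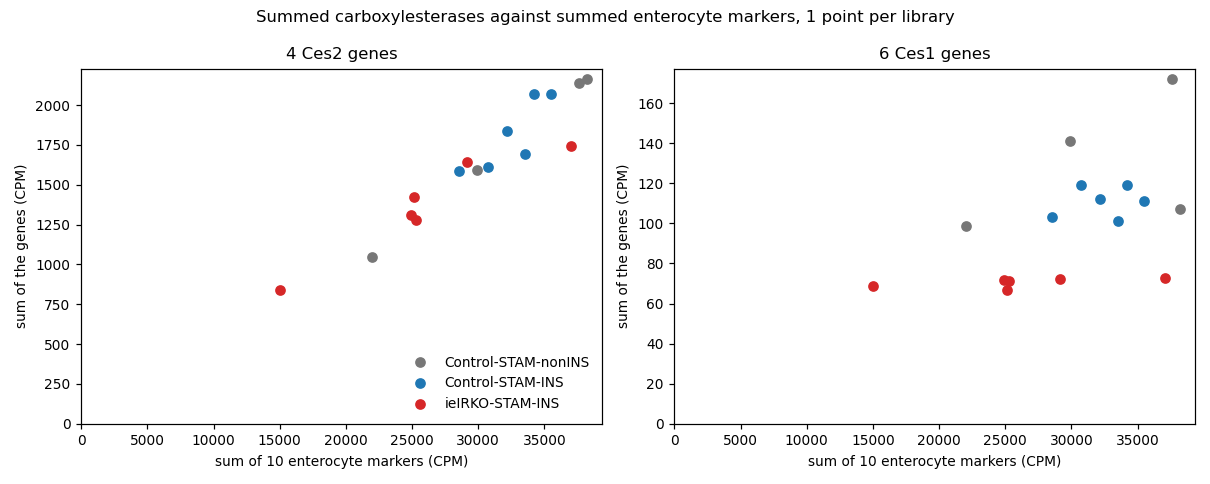
Summed level of the 4 Ces2 genes (left) and of the 6 Ces1 genes (right) against the summed level of 10 enterocyte markers, both in CPM, 1 point per library, colored by group. The Ces2 sum runs from 839 to 2163 CPM along with the markers, whereas the Ces1 sum of the ieIRKO group stays at 66.8 to 72.9 CPM while the markers run from 15042 to 37043 CPM.

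Markers of other cells were set beside these results. Adipocytes are of interest because Ces1d and Ces1f are also known from fat. The summed level of 7 adipocyte markers was 92.1 to 448 CPM in the untreated controls, 55.5 to 276 CPM in the insulin-treated controls and 31.8 to 194 CPM in the ieIRKO group. None of the 7 was called in any comparison. Their median log2 fold changes were -0.77 with insulin, 0.19 between the genotypes and -0.65 against the untreated controls. Adipoq itself was at 0 in 2 libraries, insulin-treated control replicate 4 and ieIRKO replicate 3, and reached 27.3 CPM in untreated control replicate 3. Without the 5 libraries highest in Adipoq, the log2 fold change of Ces1d was -0.83 ± 0.20 (SE) with insulin and still called. That of Ces1f between the genotypes was -0.67 ± 0.15 and was not called. Of 7 hepatocyte markers 3 passed the filter. The summed level of all 7 was 5.25 to 36.1 CPM in the untreated controls, 3.37 to 18.1 CPM in the insulin-treated controls and 2.31 to 10.6 CPM in the ieIRKO group. In the untreated controls this sum was high in replicates 1 and 3, at 33.6 and 36.1 CPM, and it was 5.25 and 5.95 CPM in replicates 2 and 4. Replicates 1 and 3 were also the highest untreated controls in Ces1g, in Ces1f (90.8 and 113 CPM) and in the Ces1 sum (141 and 172 CPM). The same 2 replicates were the highest of that group in the adipocyte markers, at 187 and 448 CPM. None of the 3 was called by edgeR in any comparison, but between the ieIRKO group and the untreated controls 2 had an unadjusted p under 0.05, with a median log2 fold change of -1.33. The part of hepatocyte RNA in the levels of Ces1g, Ces1f and the Ces1 sum was not tested. Of 7 pancreatic acinar markers none passed the filter, Cpa1, Pnlip, Amy2a5 and Cela3b were at 0 in every library, and the sum was at most 0.603 CPM. The 5 smooth muscle markers summed to 2506 to 2933, 2077 to 3206 and 2260 to 3151 CPM in the same order of groups, and the 5 macrophage markers to 108 to 191, 128 to 153 and 118 to 303 CPM, with none called in either list. The 5 B and plasma cell markers summed to 715 to 1768, 956 to 1540 and 1571 to 3111 CPM. This sum was higher in all 6 libraries labelled ieIRKO than in all 6 insulin-treated controls, as the Ces1 sum and Ces1f were lower. Between these groups none of the 5 was called by edgeR, but all 5 had an unadjusted p under 0.05, with a median log2 fold change of 1.99. Cd79a, Jchain and Mzb1 were called higher in the ieIRKO group than in the untreated controls. Ms4a1, the B cell antigen CD20, was at 80.3 CPM in ieIRKO replicate 2 and 37.4 CPM in ieIRKO replicate 3, and at most 4.88 CPM in every other library. Without these 2 libraries the log2 fold change of Ces1f between the genotypes was -0.75 ± 0.17 (SE) and the call was lost. The part of these cells in the carboxylesterase levels was not tested beyond the fits given here.

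Levels were compared among the members over the 16 libraries with Pearson's r of log2 CPM. As these libraries span 3 groups and share their epithelial content, r is a description. Within the Ces2 group r was 0.819 to 0.937 (6 pairs). Within the Ces1 group it was -0.633 to 0.607 (15 pairs), lowest for Ces1c with Ces1d, and between the groups 0.0421 to 0.633 (24 pairs). Without Ces1b, whose counts are too low to measure, r was -0.633 to 0.607 within Ces1 (10 pairs) and 0.0579 to 0.633 between the groups (20 pairs). After subtraction of the group means, the Ces2 pairs were at 0.893 to 0.949 and the Ces1 pairs without Ces1b at -0.474 to 0.213. Ces1d with Ces1g went from 0.607 to 0.147 and Ces1e with Ces1f from 0.50 to -0.474.

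**Figure D5:**
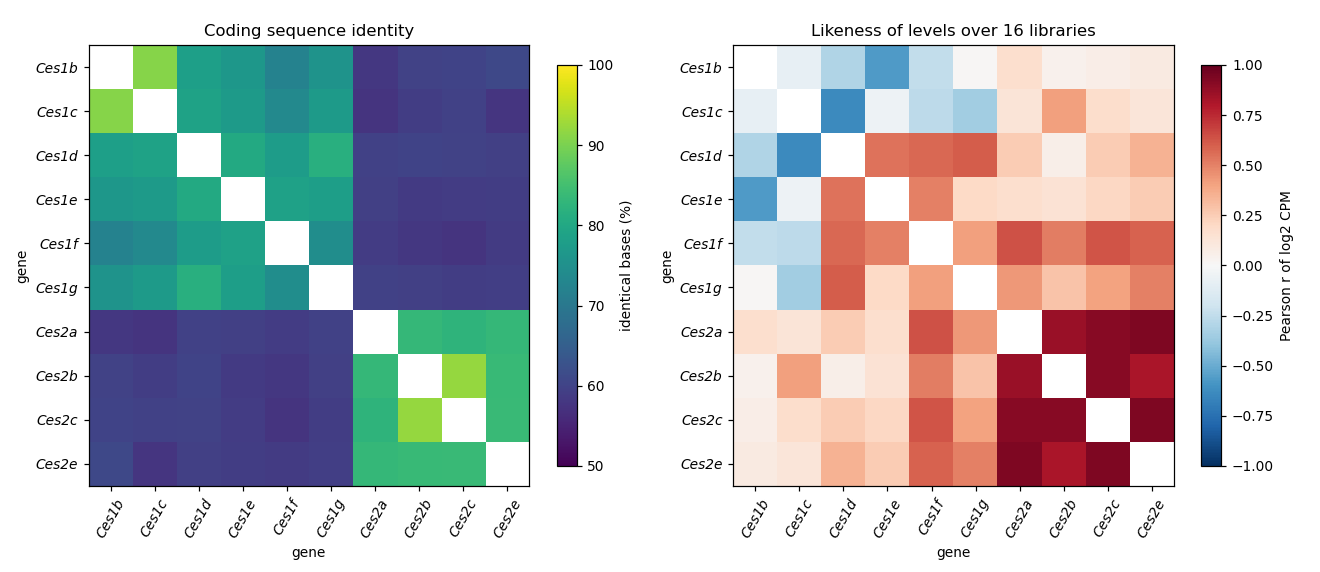
Percent of identical coding bases (left) and Pearson's r of log2 CPM over 16 libraries (right) for each pair of the 10 genes. Both groups stand out as blocks in the sequences, at 72.1% and more, and in the levels the Ces2 block lies at r of 0.819 and more. The row of Ces1b rests on 2 to 20 counts per library.

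Because the Ces2 members moved together, the 150 bases before the start of the 3 highest of them are shown (RefSeq promoters, GRCm38.p6, plus strand). Of the 10 members, 7 had an entry in the promoter table, and Ces1d, Ces1f and Ces2b did not. Capitals mark GAACTTT, a 7-base run that all 3 share. It begins 72 bases before the start in Ces2a, 74 in Ces2c and 82 in Ces2e.
Ces2a, chr8:104733853-104734002: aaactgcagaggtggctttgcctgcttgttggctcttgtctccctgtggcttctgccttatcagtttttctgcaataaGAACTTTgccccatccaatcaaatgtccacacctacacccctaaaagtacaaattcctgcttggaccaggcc
Ces2c, chr8:104846918-104847067: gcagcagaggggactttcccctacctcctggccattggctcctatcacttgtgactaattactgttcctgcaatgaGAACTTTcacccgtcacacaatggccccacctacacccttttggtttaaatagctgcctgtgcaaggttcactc
Ces2e, chr8:104926110-104926259: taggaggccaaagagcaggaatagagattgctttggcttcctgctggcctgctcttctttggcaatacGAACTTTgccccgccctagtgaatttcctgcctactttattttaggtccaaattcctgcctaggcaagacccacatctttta
Of all 32851 promoters in the table, searched on both strands over the same length, 1.81% held GAACTTT. The other 7-base run shared by all 3, TTCCTGC, was held by 4.74%. Ces2a and Ces2e shared the longer run GAACTTTGCCCC, which 3 promoters (0.00913%) held, their own included. Ces2a and Ces2c shared CACCTACACCC, which 6 promoters (0.0183%) held, again with their own included. These runs were found by comparing the 3 sequences with one another and name no factor.

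Of the remaining carboxylesterase genes, 9 are listed in the count tables and 2 passed the filter. Ces2g, the neighbour of Ces2e and Ces2f, differed with insulin. It was at 8.91, 6.74, 9.51 and 12.9 CPM in the untreated controls, at 3.48 to 4.54 CPM (median 3.97) in the insulin-treated controls and at 4.43 to 5.53 CPM (median 5.16) in the ieIRKO group. Every insulin-treated library of either genotype was below every untreated one, and 5 of the 6 knockout-labelled libraries were above all of the insulin-treated controls. Ces2g was lower with insulin in the control genotype (log2 fold change -1.24 ± 0.16, SE, edgeR adjusted p = 0.000155) and lower in the ieIRKO group than in the untreated controls (-0.91 ± 0.16, edgeR adjusted p = 0.00142). Between the genotypes it was not called (0.33 ± 0.14, 95% interval 0.03 to 0.64, edgeR adjusted p = 0.392). Both calls held when each library was left out in turn. Per 1000 CPM of the enterocyte markers, Ces2g was at 0.177 to 0.586 CPM in the untreated controls and at 0.104 to 0.15 CPM in the insulin-treated controls, again with no overlap. The ieIRKO group was at 0.14 to 0.342 CPM on that scale and overlapped the untreated controls, with 2 of 6 libraries below them. Ces2f, at 1 to 23 counts per library, was not called in any comparison (edgeR adjusted p = 0.935 to 0.988). Ces1a was at 0 in all 16 libraries, and Ces1h, Ces3b, Ces4a and Ces5a had at most 2 counts in any library, which is under the floor of 3 counts. Ces2h had 1 to 12 counts and Ces3a 0 to 12. Ces2d-ps was not analysed here.

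Of the other genes that handle the same lipids or drugs, some were lower in both insulin-treated groups, and no gene of the following lists passed edgeR's test between the genotypes. Unadjusted p was under 0.05 there for 3 of 11 other lipid hydrolases, 2 of 16 genes of fat absorption, 1 of 15 nuclear receptors and regulators and 1 of 12 targets of PXR and CAR. Of 14 other lipid hydrolases 11 were tested. With insulin 3 of the 11 were called, all lower in the control genotype, against 10.5% of all tested genes called in either direction. Aadac, an esterase of the endoplasmic reticulum, had a log2 fold change of -1.40 ± 0.37 (SE, edgeR adjusted p = 0.0245). Nceh1, a cholesteryl ester hydrolase, had a value of -0.99 ± 0.15 (adjusted p = 0.000532), and Mgll, which splits monoglycerides, -0.75 ± 0.14 (adjusted p = 0.00222, both edgeR). Between the ieIRKO group and the untreated controls 3 were lower, against 13.3% of all tested genes called, namely Abhd6 (-0.88 ± 0.25), Mgll (-0.75 ± 0.14) and Nceh1 (-0.65 ± 0.15). The medians over the 11 tested were -0.37, -0.12 and -0.65 on the log2 scale in the insulin comparison, between the genotypes and against the untreated controls.

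Of the genes of fat absorption, 1 of 16 tested was called with insulin and 1 of 16 against the untreated controls, where 10.5% and 13.3% of all tested genes were called. Both times it was Fabp1. Fabp1, a fatty acid binding protein of the proximal gut and liver, was at 85 ± 34.9 CPM (SD, n = 4) in the untreated controls, 14.3 ± 8.52 CPM (SD, n = 6) in the insulin-treated controls and 17.8 ± 11.2 CPM (SD, n = 6) in the ieIRKO group. The log2 fold change was -2.57 ± 0.56 (SE, edgeR adjusted p = 0.0117) with insulin and -2.25 ± 0.56 (edgeR adjusted p = 0.0181) against the untreated controls. The untreated controls also held the libraries highest in hepatocyte markers, at 33.6 and 36.1 CPM. The part of such RNA in the Fabp1 level was not tested. The medians over the 16 genes were 0.03, -0.20 and -0.22 in the same order.

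PXR (Nr1i2) and CAR (Nr1i3) are nuclear receptors that induce drug metabolism genes, carboxylesterases among them. Of 15 receptors and regulators tested, none was called with insulin, where 1 had an unadjusted p under 0.05, and none between the genotypes. Nr1i3 was lower in the ieIRKO group than in the untreated controls, at 1.6 ± 0.423 CPM (SD, n = 6) against 4.34 ± 4.01 CPM (SD, n = 4), with overlapping groups (log2 fold change -1.40 ± 0.41, SE, edgeR adjusted p = 0.0314). Among 12 targets of these receptors, 4 were lower with insulin, Gsta1, Sult1d1, Gstm1 and Ugt1a1, enzymes that conjugate drugs and bilirubin, against 10.5% of all tested genes called. The largest were Gsta1 (log2 fold change -0.95 ± 0.26, edgeR adjusted p = 0.0303) and Sult1d1 (-0.83 ± 0.18, edgeR adjusted p = 0.00624). Between the ieIRKO group and the untreated controls 5 of 12 were lower, against 13.3% of all tested genes called. They were the same 4 and Aldh1a1, a retinal dehydrogenase (-1.22 ± 0.19, edgeR adjusted p = 0.0009). The medians over the 12 targets were -0.54, -0.42 and -0.87.

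The genes around the clusters were examined to see whether differences ran along the chromosome. Within 1 Mb of the Ces1 members 13 other genes were tested, and 2, 2 and 3 were called with insulin, between the genotypes and against the untreated controls. Within 1 Mb of the Ces2 members 48 were tested, Ces2g among them, and 6, 0 and 6 were called. These are 15.4%, 15.4% and 23.1% near Ces1 and 12.5%, 0% and 12.5% near Ces2, beside 10.5%, 0.223% and 13.3% of all tested genes. The median log2 fold change between the genotypes was 0.09 around Ces1 and 0.06 around Ces2. Both genes called between the genotypes near Ces1 were higher in the libraries labelled ieIRKO. Mt4, a metallothionein of squamous epithelium at 94137197 to 94139031, had 0 to 4 counts in the 10 control libraries and 92 to 448 counts in the 6 libraries labelled ieIRKO. Gm45774, at 94170748 to 94173412, was at 2.08 to 4.03 CPM in the untreated controls, 0.329 to 1.18 CPM in the insulin-treated controls and 77.5 to 105 CPM in the ieIRKO group. It overlaps Mt2 on the opposite strand, and how strand was counted is not stated in the sources used here. Its log2 fold change between the genotypes was 7.07 ± 0.20 (SE, edgeR adjusted p = 8.21e-14).

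The genes with the most similar pattern over the 16 libraries were sought for the highest member of each group. For Ces2e these were Tmem238l (Pearson's r = 0.969), Tuft1 (0.951) and Pgrmc1 (0.95). For Ces1f they were Zfand3 (0.869), Nqo1 (0.84) and Atp6v1g1 (0.84). These are the highest of all tested genes outside the family, so the values are a description over 16 libraries of 3 groups.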

How the data were processed

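The 16 ileal wall libraries (4 from untreated controls, 6 from insulin-treated controls, 6 labelled ieIRKO) were grouped by their labels. The authors aligned the reads with CLC Genomics Workbench to GRCm38 (mm10) and deposited 1 table of counts per gene and mouse, not normalized. Annotation, strand and multiply mapped reads are not given in the sources used here. Totals were 13288018 to 22215382 counts, which cover counting error only, and 3 counts were taken as the floor.

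Genes were filtered with filterByExpr (minimum count 10, minimum total 15), normalized by TMM and fitted in all 3 groups together with edgeR 4.0.16 (quasi-likelihood, robust, R 4.3.3, limma 3.58.1), tested on simulated data first. Adjusted p-values are Benjamini-Hochberg over 15267 genes, log2 values use a prior count of 2, and SE is the log2 fold change divided by the square root of F. Intervals are 95%, from the t distribution with each gene's degrees of freedom in the fit. Labels call the libraries biological replicates. Within groups, the pairs of libraries differed by more than sampling noise (chi-square per degree of freedom 15.8 to 119), so none was a duplicate.

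The members and lists were chosen with earlier results of these data known. Named are all members, Insr, every other carboxylesterase, called genes of the lists (all where 5 or fewer, otherwise the largest) and, within 1 Mb of the members, genes called between the genotypes. Ces1b's limit of 10 counts at the median was set after its values were seen. Positions and lengths are from GENCODE M21 (GRCm38), promoters from RefSeq (GRCm38.p6). Alternatives were other normalizations, DESeq2 1.42.0, a likelihood ratio test, other filters, only the groups compared, a replicate block and leaving out libraries.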

Additional observations from a re-analysis of the deposited data

Results flagged for a closer look

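Ces2c in ieIRKO replicate 5 stood apart from the other 5 libraries of its group, at 138 CPM against 310 to 449 CPM. Its gap to the nearest library was 0.687 of the whole range on the log2 scale. Of 36 groups examined in this way (12 genes in 3 groups), this was the only one past the 95% limit, and chance alone flags about 1 in 20, or 1.8 of 36. The same library was the lowest in the summed enterocyte markers, at 15042 CPM, and the highest in the summed B and plasma cell markers, at 3111 CPM. Whether these account for its Ces2c level was not tested.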

How the results depend on the processing

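The counts of called members moved by more than 1.5 times in 4 of 29 alternatives with insulin, 11 of 29 between the genotypes and 5 of 29 against the untreated controls. With insulin, 1 instead of 2 members was called without the 5 libraries highest in Adipoq, a set chosen after seeing the data. The call lost was that of Ces1c, whose log2 fold change was 0.96 ± 0.32 (SE) there and 0.93 ± 0.25 with all libraries. Between the genotypes, DESeq2 and the likelihood ratio test called 2 instead of 1, adding Ces1e, and 0 were called without the 2 libraries highest in the B cell genes Cd79a and Ms4a1 (ieIRKO replicates 2 and 3, which were not the highest in the summed B and plasma cell markers), without the 5 libraries highest in Adipoq and with the enterocyte marker level as a covariate, all chosen after seeing the data. Against the untreated controls, 1 instead of 4 was called without the 5 libraries highest in Adipoq, with Ces1e, Ces1f and Ces1g lost. Over all genes, the call counts between the genotypes were 34 with edgeR, 123 with DESeq2, 90 with the likelihood ratio test and 4 without the 5 libraries highest in Adipoq. Leaving out each library in turn gave 1 to 2 called members with insulin, 0 to 1 between the genotypes and 2 to 4 against the untreated controls. Ces2g kept both of its calls in all of these fits.

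Whether the replicate numbers pair the mice is not known. The deviations of same-numbered libraries had correlations of -0.094 to 0.179 (median 0.024, 4 of 14 pairs over 0.1). Those of libraries with different numbers were -0.305 to 0.230 (median 0.003, 10 of 70 pairs over 0.1). These ranges overlap, so pairing was neither shown nor excluded. With a replicate block, 2 instead of 4 members were called against the untreated controls (Ces1d and Ces1f), 2 with insulin and 1 between the genotypes. Of 865 refitted member fold changes, 864 moved by less than the replicate SD and none of a called member reversed. The exception was Ces1b against the untreated controls, at 1.24 without the 5 libraries highest in Adipoq. The order of the members per length, from means over all 16 libraries, was the same in all 17 alternatives, although within the untreated controls Ces1g stood above Ces2b and Ces1e. Depth limits Ces1b, Ces1c, Ces2f and the untested genes, and a group of 4 limits every comparison with the untreated controls.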
